A study of Rattus norvegicus with 16 samples.

Results

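The miR-99/100 and miR-125 families were followed through 5 miRNAs, rno-miR-99a, rno-miR-99b, rno-miR-100, rno-miR-125a-5p and rno-miR-125b-5p, out of the 350 rat miRNAs on the array. They were taken by their array names alone, written below without the rat prefix rno, and the strands from the other arm of each hairpin were left out. All rats were male Sprague-Dawley animals that went 3 days without water and then received furosemide, a loop diuretic, at 10 mg/kg. The contrast-induced acute kidney injury (CI-AKI) rats were then given 10 ml/kg of the iodinated contrast medium Omnipaque (350 mg of iodine per ml) into a tail vein, and the control rats 10 ml/kg of normal saline, so that dehydration and furosemide were common to both groups. Kidney and plasma were taken 8 h later from 24 rats, 12 per treatment, and RNA from 3 rats was combined into each pool, with 4 pools in each of the 4 groups and 1 single-colour Agilent array per pool. A pool hides the spread between its 3 rats, and every p-value below refers to the spread between pools.

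A miRNA is a short RNA that guides repression of mRNAs, chosen mainly by its seed, bases 2 to 8 counted from the 5′ end. The miR-99/100 family is known for repressing mTOR, a kinase that promotes growth, and the miR-125 family comprises the vertebrate relatives of lin-4, a timer of development in worms. Genes of both families sit beside a let-7 gene in conserved clusters, and whole kidney as well as plasma are known to contain these miRNAs.

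The mature sequences below, from RefSeq (build GRCr8), are shown 5′ to 3′ because the results turn on relatives that share a seed; capitals mark the seed. RefSeq sequences were matched for 4 of the 5 members. The let-7 lines and the opposite strand of the miR-125a hairpin are given because they were compared with the members.
miR-99b: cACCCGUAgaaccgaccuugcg
miR-100: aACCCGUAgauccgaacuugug
miR-125a-5p: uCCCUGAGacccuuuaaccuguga
miR-125b-5p: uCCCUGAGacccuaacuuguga
miR-125a-3p: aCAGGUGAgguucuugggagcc
let-7a: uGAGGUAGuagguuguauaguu
let-7c: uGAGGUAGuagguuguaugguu
let-7e: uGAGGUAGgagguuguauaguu

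MiR-99b and miR-100 shared their seed and differed by 4 substitutions, C1A, A11U, C16A and C21U, with the miR-99b base first and positions counted from the 5′ end. MiR-125a-5p and miR-125b-5p shared their first 13 bases and were 3 edits apart. Let-7a and let-7e differed by the single substitution U9G, and let-7a and let-7c by A19G, with the let-7a base first. Whether probes for such close relatives also bind each other was not tested.

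The genes form 3 clusters on the plus strand of GRCr8. Mir99b, Mirlet7e and Mir125a lie within 696 bases of chromosome 1, with mature miR-99b at chr1:67350070-67350091 and miR-125a-5p at chr1:67350689-67350712. Mir100, Mirlet7a-2 and Mir125b1 span 51828 bases of chromosome 8, with mature miR-100 at chr8:50798307-50798328. Mir99a, Mirlet7c1 and Mir125b2 span 45257 bases of chromosome 11, where the listed copy of miR-125b-5p lies at chr11:29732588-29732609. Mir125b1 and Mir125b2 both feed the miR-125b-5p signal, and let-7a and let-7c also have copies outside these clusters, so the signals of these miRNAs cannot be assigned to 1 locus.

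Each array held 7000 spots, and kidney arrays detected 169 to 216 miRNAs. Plasma pools 1 to 3 detected 156 to 211, whereas the pool 4 arrays of control and CI-AKI plasma detected 84 and 95, with total signals of 3859 and 7436 against at least 24501 on the other plasma arrays. Because these 2 arrays stood apart, the differences that rest on them are also given without them. All plasma arrays lay on slide 1 and all kidney arrays on slide 2, so tissue and slide cannot be told apart; control pools filled the odd and CI-AKI pools the even columns of each slide, so treatment and column cannot be told apart either. The sample descriptions carry 8 letter codes, each used once per tissue, and 6 of the 8 stand under opposite treatments in plasma and kidney; their meaning is not given in the sources used here, and the title groups were used.

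All 5 members were detected on all 8 kidney arrays. In plasma, miR-125b-5p was detected on 4 of 4 control and 4 of 4 CI-AKI arrays, miR-99a on 3 and 4, miR-100 and miR-125a-5p on 3 and 3 each, and miR-99b on 2 and 1. The arrays that missed miR-100 and miR-125a-5p were the pool 4 arrays of both groups. Each member was read by 2 probes and 20 spots per array. The median coefficient of variation between spots of a probe was 3.9% to 8.5% across members in kidney, and in plasma pools 1 to 3 it was 5.5% for miR-125b-5p, 7.6% for miR-125a-5p, 8.4% for miR-99a, 21.7% for miR-100 and 34.5% for miR-99b. The opposite strands were mostly dim: miR-99a* was detected on 8 of the 16 arrays, miR-99b* on 4, miR-125b* on 2 and miR-125b-3p on 0, and only miR-125a-3p, on 15, was widely measured.

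The effect of contrast medium in the kidney was examined first. The 5 members showed no difference beyond the spread between pools: 0 of 5 passed limma's moderated test at an adjusted p of 0.05, where 3 of 176 tested miRNAs (1.7%) did. The members' median log2 difference, CI-AKI minus control, was -0.0047, beside 0.028 over all 176. Control and CI-AKI pools overlapped for every member, where 5.11% of tested miRNAs did not overlap. A miRNA was tested where all 4 pools of at least 1 of the groups compared detected it, which all 5 members met in kidney.

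MiR-99a gave scaled signals of 370, 358, 370 and 352 in control kidney pools 1 to 4 and of 370, 360, 391 and 374 in CI-AKI pools 1 to 4, in units of background-corrected array signal scaled within kidney. Its log2 difference was 0.045 (SE 0.057; 95% interval -0.08 to 0.17; limma adjusted p = 0.917). MiR-99a was the steadiest member, with an SD within groups of 0.0429 on the log2 scale beside a median of 0.132 over the 176 tested.

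MiR-99b read 111, 102, 95.3 and 91.6 in control pools and 103, 101, 89.9 and 93.4 in CI-AKI pools, a difference of -0.045 (SE 0.081; 95% interval -0.23 to 0.14; limma adjusted p = 0.917). MiR-100 read 63.2, 62.4, 62.0 and 56.0 in control and 58.6, 63.6, 50.2 and 66.2 in CI-AKI pools, a difference of -0.036 (SE 0.094; 95% interval -0.25 to 0.18). For both, CI-AKI pool 3 was the lowest of the 8 kidney arrays; that array also had the lowest total signal among kidney arrays.

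MiR-125a-5p read 401, 402, 361 and 372 in control kidney and 372, 425, 348 and 389 in CI-AKI kidney, a difference of -0.0047 (SE 0.078; 95% interval -0.18 to 0.17). MiR-125b-5p read 1001, 975, 948 and 893 in control and 1025, 998, 887 and 997 in CI-AKI pools, a difference of 0.032 (SE 0.070; 95% interval -0.13 to 0.19). CI-AKI pool 3 was again the lowest array for both, while it was the highest for miR-99a. In a whole-kidney extract, fewer cells of a type and less RNA per cell cannot be told apart, and opposite changes in different segments of the kidney would not show.

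**Figure D1:**
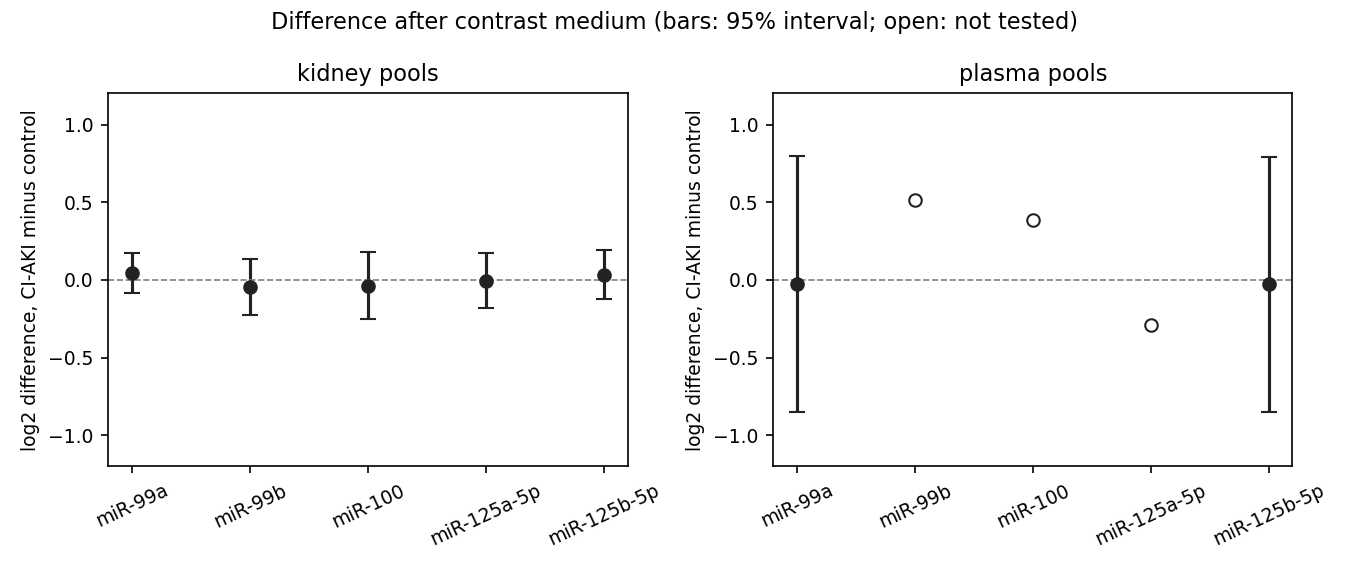
Log2 difference between CI-AKI and control pools (vertical axis) for the 5 members, in kidney (left) and plasma (right); filled points are limma estimates with 95% intervals and open points are differences of means for miRNAs that were detected on too few arrays to be tested. All 5 kidney intervals include 0 and lie between -0.25 and 0.19, whereas the plasma interval of miR-99a reaches from -0.85 to 0.80.

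Among the other miRNAs of these clusters in kidney, the log2 differences were -0.088 (SE 0.070) for let-7a, -0.062 (SE 0.065) for let-7c, -0.030 (SE 0.068) for let-7e and 0.27 (SE 0.16) for miR-125a-3p, and 0 of these 4 passed limma's test. The ratio of 1 member to another on the same array, which does not depend on scaling, was also compared between treatments. Among the 10 pairs of members in kidney, 0 passed after adjustment and the smallest exact permutation p, two-sided, was 0.0857. With only the brightest probe of each miRNA 1 pair did not overlap between treatments, and 0 passed. The smallest exact permutation p was then 0.0286, the smallest possible, and 0.286 after adjustment.

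With all 8 kidney arrays, 4 of the members varied together and apart from miR-99a. Over the 8 kidney arrays, Pearson's r was 0.52 to 0.76 between miR-99b, miR-100, miR-125a-5p and miR-125b-5p, and -0.54 to -0.13 between miR-99a and each of them. These coefficients describe arrays that share a slide and the scaling. Without CI-AKI pool 3, a choice made after seeing the data, the coefficients of miR-99a became 0.32 to 0.79. Those between the other 4 members became 0.35 to 0.73. The split between miR-99a and the other members therefore rested on that array. Among the 162 other miRNAs detected on all 8 kidney arrays, the profile most like that of miR-99a was miR-331 (r = 0.87), that of miR-99b miR-17-3p (0.81), that of miR-100 miR-199a-3p (0.93), that of miR-125a-5p miR-532-3p (0.80) and that of miR-125b-5p miR-126 (0.88). Each of these coefficients is the highest of 162 over only 8 arrays, and none was recomputed without CI-AKI pool 3. Over all 16 arrays miR-125b-5p, the member detected on each, was most like miR-26a (r = 0.79), and these 16 values also carry the difference between tissues.

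In plasma, the effect of contrast medium could be tested for miR-99a and miR-125b-5p, and neither difference exceeded the spread between pools; limma called 0 of 96 tested miRNAs (0%) at an adjusted p of 0.05, with 5 at an unadjusted p under 0.05. MiR-99a read 42.4, 57.0, 64.1 and 31.5 in control pools 1 to 4 and 43.9, 82.5, 44.5 and 28.1 in CI-AKI pools, scaled within plasma. Its log2 difference was -0.028 (SE 0.37; 95% interval -0.85 to 0.80; limma adjusted p = 0.959). MiR-125b-5p read 140, 115, 204 and 186 in control and 209, 242, 131 and 84.6 in CI-AKI pools, with a difference of -0.029 (SE 0.37; 95% interval -0.85 to 0.79; limma adjusted p = 0.959). The groups overlapped for both, where 5.21% of tested miRNAs did not overlap, and in each the CI-AKI pools spanned a wider range than the control pools.

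The 3 members detected on fewer plasma arrays are given as values. MiR-125a-5p read 26.3, 31.6, 25.1 and 23.5 in control and 29.5, 52.3, 20.2 and 7.03 in CI-AKI plasma; the groups overlapped, and the lowest value was the undetected signal of pool 4. MiR-100 read 9.10, 4.85, 7.23 and -2.38 in control and 6.38, 6.60, 3.52 and 6.18 in CI-AKI plasma. MiR-99b read 2.40, 3.40, 2.87 and 3.68 in control and 5.67, 4.22, 2.25 and 6.66 in CI-AKI plasma, and the 5 undetected readings among these 8 included the highest in each group. On the pool 4 arrays the lowest signal called detected reached 20.9, so readings of these dim miRNAs there are not measured levels.

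The plasma differences depended on which arrays were included. Their median over the 2 tested members was 0.11 without control pool 3 and -0.28 without CI-AKI pool 2. Values also moved with the pool 4 arrays. Without both of them the log2 difference was 0.27 (SE 0.35; limma adjusted p = 0.768) for miR-99a, 0.59 (SE 0.37; adjusted p = 0.448) for miR-125b-5p, 0.45 (SE 0.40; adjusted p = 0.668) for miR-125a-5p and -0.11 (SE 0.41; adjusted p = 0.950) for miR-100. Each slide row held 2 pools of each group, pools 1 and 2 in the upper row and pools 3 and 4 in the lower. Within the upper and lower row the differences were 0.83 and -0.89 for miR-125b-5p, 0.45 and -1.03 for miR-125a-5p and 0.29 and -0.35 for miR-99a. The lower row includes both pool 4 arrays, so the rows are no check separate from them. The direction of the plasma difference was therefore not settled for these 3 miRNAs. A test of whether the contrast effect differed between kidney and plasma called 1 of 87 miRNAs (1.15%) and 0 of the 2 members tested, with estimates of 0.027 (SE 0.39) for miR-99a and 0.015 (SE 0.39) for miR-125b-5p.

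**Figure D2:**
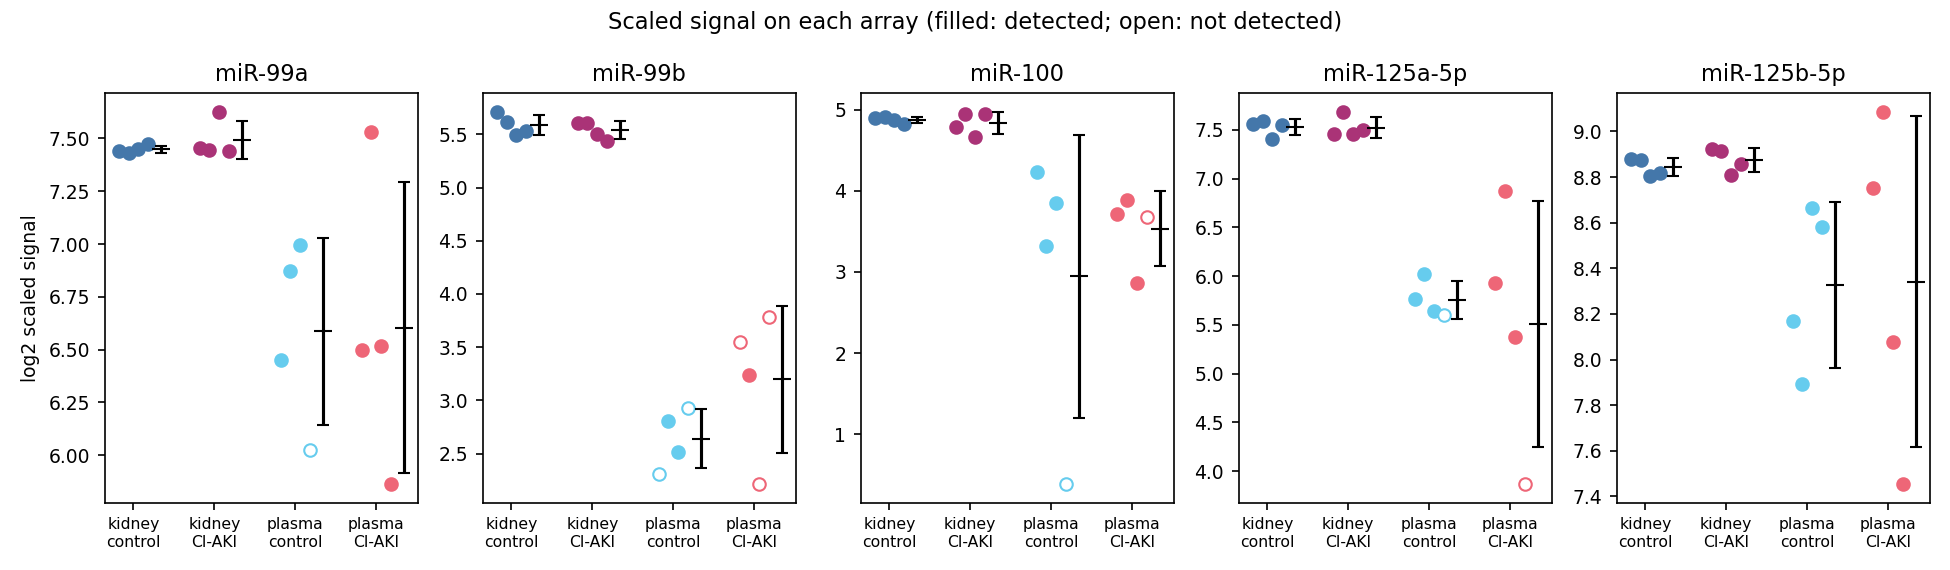
Log2 scaled signal of each member on each of the 16 arrays (vertical axis; each panel has its own range, and levels are not comparable between panels), by group; filled circles mark arrays that detected the miRNA, open circles arrays that did not, and black bars the mean and SD of 4 pools. Kidney arrays of both treatments lie close together, and plasma arrays lie lower for every member in the control pools and scatter more widely.

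Kidney and plasma were then compared on a scale common to the 16 arrays. In control pools the members read higher in kidney than in plasma, from a log2 difference of 0.52 for miR-125b-5p upward. Higher in kidney by limma at an adjusted p of 0.05 were 5 of 5 members, beside 59 of 178 miRNAs tested (33.1%), and no member's tissue groups overlapped, beside 60 of 178 (33.7%) that were higher in kidney without overlap. These counts are a description: miR-99a, miR-99b, miR-100 and miR-125a-5p were not detected on every control plasma array and were tested only through their detection in kidney, where they are high. With detection required on every array, 1 member, miR-125b-5p, was tested, and it passed. A difference between tissues on this scale is relative to the other miRNAs of the array, since the amounts of miRNA in kidney and plasma RNA are not comparable in absolute terms.

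MiR-99b ranged from 45.0 to 52.3 in control kidney and from 4.96 to 7.60 in control plasma, a log2 difference of 2.95 (SE 0.16; limma adjusted p = 8.26e-07). It was detected on only 2 of the 4 plasma arrays, pools 2 and 3, so its readings in pools 1 and 4 are no measured levels and the size of its difference is a description. MiR-125a-5p ranged from 170.3 to 193.5 in kidney and from 48.4 to 65.1 in plasma, a difference of 1.77 (SE 0.13; limma adjusted p = 4.06e-06). MiR-100 ranged from 28.3 to 30.1 in kidney and from a reading below the floor to 18.8 in plasma, a difference of 1.93 (SE 0.77; limma adjusted p = 0.0491), which became 1.21 without plasma control pool 4, the array at the floor. MiR-99a ranged from 172 to 178 in kidney and from 65.1 to 128 in plasma, a difference of 0.86 (SE 0.21; limma adjusted p = 0.00624). MiR-125b-5p ranged from 448 to 471 in kidney and from 237 to 406 in plasma, a difference of 0.52 (SE 0.18; limma adjusted p = 0.0318).

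The calls for miR-100, miR-125b-5p and miR-99a depended on the processing, and in limma each of these 3 lost its call under some alternatives. Without scaling the adjusted p was 0.0906 for miR-99a (difference 2.90) and 0.0810 for miR-125b-5p (2.55), and with the total signal it was 0.0505 for miR-99a. With all 4 groups in 1 fit it was 0.108 for miR-125b-5p, and with detection on at least 1 array 0.0571 for miR-100. Pools of the same number deviated together in control kidney and plasma, and with the pool number as a block 3 of 5 members passed, with adjusted p = 0.0521 for miR-100 and 0.0627 for miR-125b-5p in limma. Leaving out control kidney pool 1, 2, 3 or 4 gave adjusted p = 0.0888, 0.0855, 0.0862 and 0.0809 for miR-100 and 0.0698, 0.0719, 0.0594 and 0.0628 for miR-125b-5p. Leaving out plasma control pool 2 gave 0.0766 for miR-100 and 0.0508 for miR-125b-5p, and leaving out plasma control pool 1 gave 0.0735 for miR-125b-5p. Without pool 4 of both plasma groups the differences were 3.36 for miR-99b, 2.04 for miR-125a-5p, 1.39 for miR-100, 0.99 for miR-99a and 0.92 for miR-125b-5p, and 5 of 5 passed.

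In the CI-AKI pools, which came from other rats, 4 of 5 members were higher in kidney by limma, beside 51 of 181 tested miRNAs (28.2%). MiR-99b, miR-100 and miR-125a-5p, detected on 1, 3 and 3 of the 4 CI-AKI plasma arrays, were tested only through kidney, so this count too is a description. With detection required on every array 2 members were tested, and miR-99a passed while miR-125b-5p did not. The differences were 2.34 (SE 0.33; limma adjusted p = 0.00012) for miR-99b, 2.01 (SE 0.53; adjusted p = 0.00676) for miR-125a-5p, 1.30 (SE 0.26; adjusted p = 0.00111) for miR-100, 0.89 (SE 0.33; adjusted p = 0.0322) for miR-99a and 0.53 (SE 0.34; adjusted p = 0.174) for miR-125b-5p. MiR-99b, miR-100 and miR-125a-5p did not overlap between the tissues, beside 28.7% of tested miRNAs that were higher in kidney without overlap, and miR-99a and miR-125b-5p did overlap. Leaving out a single CI-AKI array raised the adjusted p of miR-99a above 0.05 in 7 of 8 cases, kidney pools 1 to 4 and plasma pools 1, 3 and 4, to at most 0.0807. MiR-125b-5p passed limma's test when plasma pool 2 was left out (0.78; adjusted p = 0.0401), when all miRNAs set the percentile (1.32; adjusted p = 0.00386), with median scaling (0.96; adjusted p = 0.0144) and without scaling (2.71; adjusted p = 0.0450). MiR-100 lost its call with all 4 groups in 1 fit (limma adjusted p = 0.0572). Without pool 4 of both plasma groups the differences were 2.69 for miR-99b, 1.61 for miR-125a-5p, 0.79 for miR-99a and 0.39 for miR-125b-5p, and miR-100 kept its call (limma adjusted p = 0.000495).

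**Figure D3:**
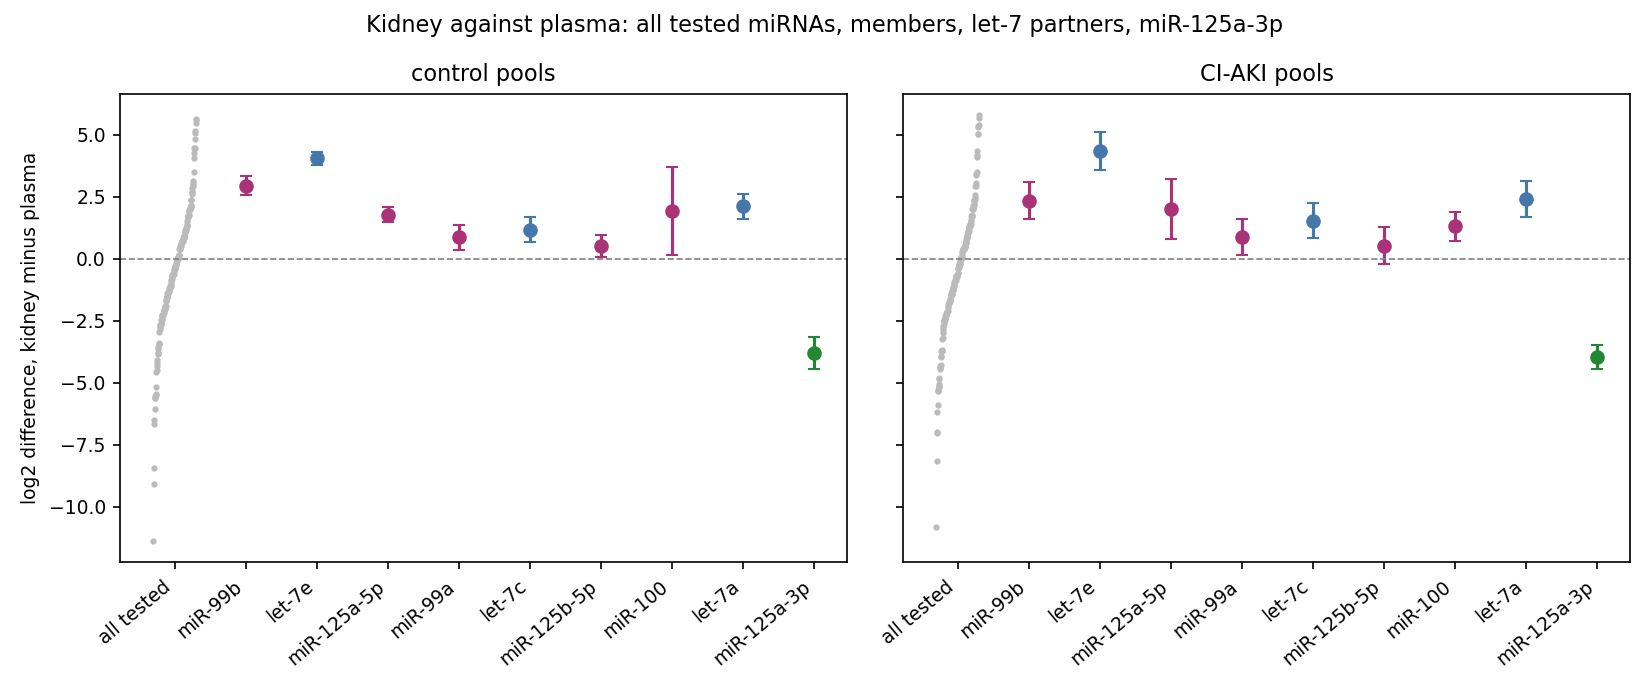
Log2 difference between kidney and plasma (vertical axis) in control pools (left) and CI-AKI pools (right): grey dots are all 178 and 181 tested miRNAs in rank order, purple points the 5 members, blue points the let-7 miRNAs of the same clusters and the green point miR-125a-3p, with 95% intervals. Members and let-7 miRNAs lie above 0, with let-7e at 4.05 and 4.35, and miR-125a-3p lies at -3.80 and at -3.96.

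The let-7 neighbours showed the same direction. Let-7e, the middle gene of the chromosome 1 cluster, was 4.05 (SE 0.11; limma adjusted p = 1.51e-08) higher in kidney in control pools and 4.35 (SE 0.34) in CI-AKI pools. Let-7a, with 1 copy in the miR-100 cluster, was 2.11 (SE 0.21) and 2.41 (SE 0.32) higher, and let-7c, with 1 copy in the miR-99a cluster, 1.17 (SE 0.22) and 1.53 (SE 0.31) higher. Let-7e was undetected on the pool 4 arrays of both plasma groups. With these arrays it was tested only through its detection in kidney, where it is high, so its adjusted p is a description. Without these arrays the differences in control and CI-AKI pools were 4.37 and 4.41 for let-7e, 2.60 and 2.73 for let-7a and 1.65 and 1.72 for let-7c. Among relatives of the same seed in control pools, miR-125a-5p of the chromosome 1 cluster was at 1.77 beside 0.52 for miR-125b-5p, and let-7e at 4.05 beside 2.11 for let-7a and 1.17 for let-7c. No order is read among miR-99b, miR-100 and miR-99a, because miR-99b was undetected on 2 of the 4 control plasma arrays and miR-100 was at the floor on 1.

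Ratios of relatives on the same array compared these differences directly. The log2 ratio of miR-125a-5p to miR-125b-5p, relative to its mean in control kidney, was -1.10, -0.55, -1.71 and -1.67 in control plasma pools 1 to 4, against -0.080 to 0.050 in control kidney. It was -1.51, -0.90, -1.39 and -2.27 in CI-AKI plasma, against -0.15 to 0.082 in CI-AKI kidney. Every plasma array lay below every kidney array. Between the tissues it differed by 1.26 in control pools and by 1.48 after contrast medium, each with an exact two-sided permutation p = 0.0286, the smallest that 4 against 4 allows, and 0.0571 after adjustment over the 10 pairs of members. MiR-125a-5p was undetected on pool 4 of both plasma groups, so the ratios there are no measured levels. The p-values include these arrays and are a description. Without pool 4 of both plasma groups the ratio differed by 1.12 and 1.23, and the tissues did not overlap.

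The log2 ratio of miR-99a to miR-99b, relative to control kidney, was 2.28, 2.21, 2.62 and 1.24 in control plasma and 1.09, 2.43, 2.45 and 0.21 in CI-AKI plasma, against -0.13 to 0.26 over the 8 kidney arrays. Plasma and kidney did not overlap in the control pools (difference -2.09; exact permutation p = 0.0286, adjusted 0.0571) and overlapped in the CI-AKI pools through pool 4 (difference -1.45; exact permutation p = 0.0571, adjusted 0.0952). MiR-99b was undetected on the 2 pool 4 arrays and on pool 1 of both groups, and on CI-AKI pool 3. Ratios with miR-99b on these arrays are no measured levels. Their differences and p-values are therefore a description, also where the pool 4 arrays are left out. Without both pool 4 arrays the ratio of miR-99a to miR-99b differed by -2.37 in control and -1.90 in CI-AKI pools, without overlap in either. For miR-99b to miR-100, the pair of relatives printed above, the difference was 1.02 in control pools with overlap (exact permutation p = 0.314) and 1.04 in CI-AKI pools without overlap (p = 0.0286, adjusted 0.0571, exact permutation test). The control overlap came through the floored pool 4 reading of miR-100: without both pool 4 arrays the difference was 1.97, and with the brightest probe 1.73, each without overlap. Across the 10 pairs, 5 did not overlap between the tissues in each treatment, and 0 passed after adjustment in either. Without both pool 4 arrays 6 pairs in control and 8 in CI-AKI pools did not overlap, and 0 passed in either, where the smallest exact permutation p that 4 against 3 allows is 0.0571. The share of pairs of other miRNAs without overlap was not computed, so these counts are a description. Among single tested miRNAs, 78.7% in control and 71.8% in CI-AKI pools did not overlap between the tissues, in either direction.

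The ratio of let-7e to let-7c, a pair added after its values were seen, was 2.87 higher in kidney in control and 2.81 in CI-AKI pools, and that of let-7e to let-7a 1.94 higher in both; kidney and plasma arrays did not overlap in any of these comparisons. Without both pool 4 arrays these differences were 2.72 and 2.69 for let-7e to let-7c and 1.77 and 1.68 for let-7e to let-7a. Between treatments, 0 of the 10 pairs of members passed in plasma, where the smallest exact permutation p was 0.457. Without both pool 4 arrays 1 pair did not overlap between treatments, and 0 passed. The smallest exact permutation p was then 0.1, the smallest possible, and 0.875 after adjustment.

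**Figure D4:**
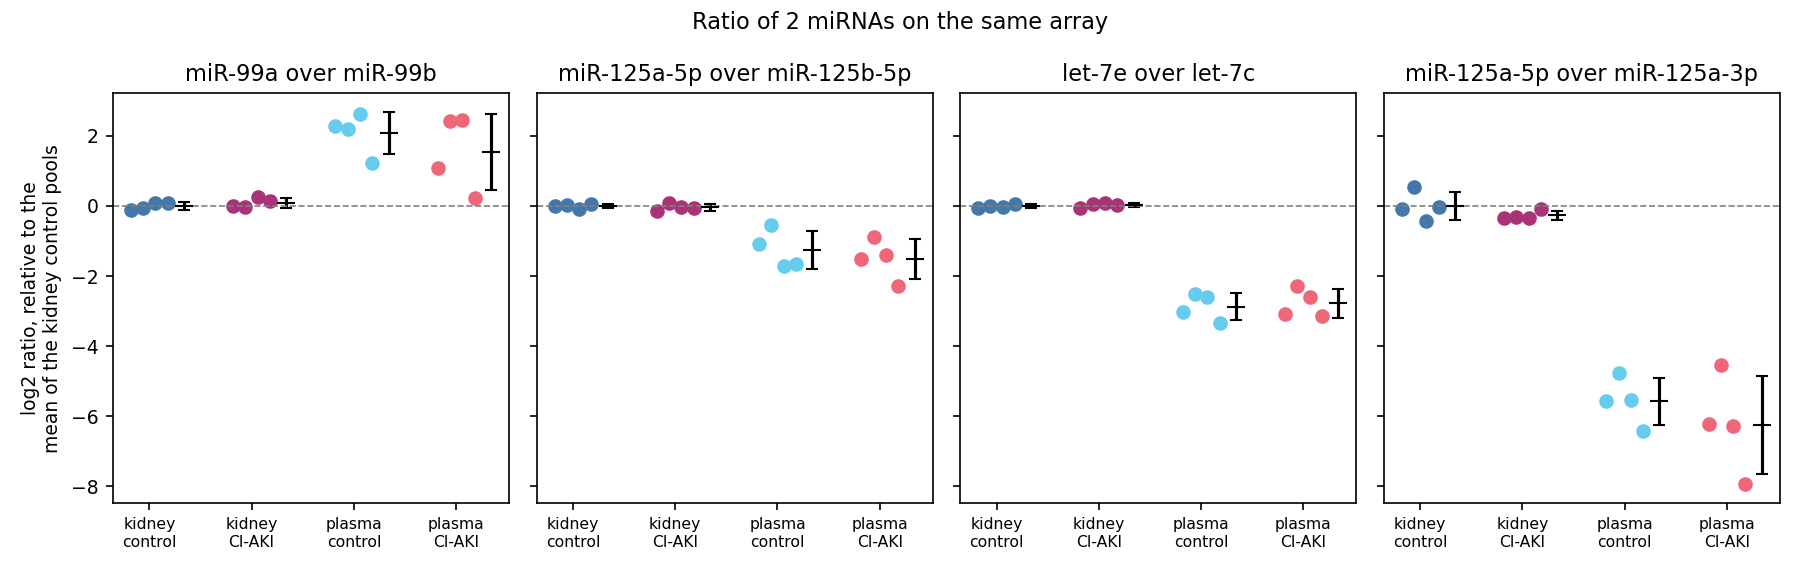
Log2 ratio of 2 miRNAs on the same array, relative to its mean over the 4 control kidney arrays (vertical axis), for miR-99a over miR-99b, miR-125a-5p over miR-125b-5p, let-7e over let-7c and miR-125a-5p over miR-125a-3p, by group; circles are arrays and black bars the mean and SD. Kidney arrays of both treatments lie near 0, and plasma arrays lie above 0 in the first panel and below it in the others. Circles include plasma arrays on which a miRNA of the pair was not detected.

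The strands of the miR-125a hairpin differed in opposite directions between the tissues. MiR-125a-3p, which is cut from the same hairpin as miR-125a-5p, read 3.52, 2.36, 4.04 and 3.36 in control kidney pools and 45.5, 31.3, 41.1 and 72.8 in control plasma pools, the last being the undetected reading of pool 4. Its log2 difference, kidney minus plasma, was -3.80 (SE 0.28; limma adjusted p = 4.28e-06) in control and -3.96 (SE 0.22; limma adjusted p = 2.11e-07) in CI-AKI pools. Without both pool 4 arrays it was -3.26 and -3.79. In limma without scaling it was -1.77 (adjusted p = 0.151) in control and -1.78 (adjusted p = 0.0948) in CI-AKI pools, and in the authors' deposited table -1.72 (adjusted p = 0.169) and -2.83 (adjusted p = 5.42e-06), so the call was lost in control pools under both and in CI-AKI pools without scaling. The ratio of miR-125a-5p to miR-125a-3p, also added after its values were seen, was higher in kidney by 5.58 on the log2 scale in control pools and by 5.97 after contrast medium, and by 5.29 and 5.41 without both pool 4 arrays; the tissues did not overlap. All 4 probes for miR-125a-3p were lower in kidney, by -4.86, -3.77, -3.81 and -3.17 in control pools, and both probes for miR-125a-5p were higher, by 2.47 and 1.61. Whether the miR-125a-3p probes bind other plasma RNA was not tested.

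The probes of the other members also gave 1 direction each in the control pools. The differences between kidney and plasma were 3.39 and 2.76 for the probes of miR-99b, 2.70 and 1.04 for miR-100, 1.45 and 0.59 for miR-99a and 0.61 and 0.49 for miR-125b-5p. The larger miR-100 value came from a probe whose signal was at the floor on 2 plasma arrays.

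Markers of kidney and of other cell types also differed between the tissues. In control pools 4 of 5 kidney markers (miR-192, miR-194, miR-200b and miR-10a-5p, but not miR-204) were higher in kidney, beside 59 of 178 tested miRNAs (33.1%). Higher in plasma were 2 of 2 red cell markers, 3 of 3 leukocyte markers, 1 of 1 liver marker and 4 of 4 stromal markers, beside 79 of 178 (44.4%). MiR-194 and miR-200b were detected on 2 and 3 of the 4 plasma arrays of each treatment. Both were tested only through kidney, where they are high, so their part of the count is a description. The summed signal of miR-451 and miR-144 was 105.4 to 226.9 in control kidney and 5424 to 8938 in control plasma, and that of the leukocyte markers miR-223, miR-142-3p and miR-150 was 237 to 272 and 4578 to 6077. For the kidney markers the sums were 2554 to 2855 in control kidney and 976 to 1336 in control plasma, and for the stromal markers miR-143, miR-145, miR-199a-3p and miR-214 they were 582 to 697 and 1435 to 2629. Of the neural markers miR-124 and miR-9, only miR-9 was tested. It was higher in kidney, but no plasma array detected it, so it too was tested only through kidney. In the CI-AKI pools the counts were the same except for leukocyte markers, of which 2 of 3 were higher in plasma. Of all 181 miRNAs tested there, 51 (28.2%) were higher in kidney and 84 (46.4%) in plasma. MiR-122, the liver marker, was detected on 0 kidney arrays and was tested only through plasma, where it is high. The part of blood cell RNA in the plasma levels of the members was not tested.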

How the data were processed

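Per the file headers, the authors extracted the intensity of each spot with Agilent Feature Extraction 10.7.3.1; per the labels' protocols, total RNA was labelled with Agilent's miRNA kit. A series table deposited by the authors holds log2 values, with a median of 2.28 in its column for plasma control pool 1. How it was made is not stated in the labels, and it served as an alternative. Processed signals were averaged over spots and probes without control and outlier spots. Each array was scaled to the 75th percentile of the miRNAs detected on all arrays (163 in kidney, 74 in plasma, 65 over both tissues). Values below a floor (1.79, 0.976 and 1.31) were raised to it before log2 was taken, which can shift differences of dim miRNAs. Differences were tested in R 4.3.3 with limma 3.58.1 (lmFit, eBayes) over all tested miRNAs with Benjamini-Hochberg adjustment at 0.05, and ratios with exact permutation tests. The fits were checked on simulated data.

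Named are the 5 members, the other strands of their hairpins, the let-7 partners, the marker lists and, for each member, the miRNA with the most similar profile. The members and lists were chosen with earlier results of these data known. The main limma tests and the permutation tests did not pair pools by number. A block for pool number was run only as an alternative to limma's main fit, in every comparison. Every same-number correlation of deviations from the group means exceeded 0.1 between the plasma groups (0.168 to 0.614) and between control kidney and plasma (0.272 to 0.443). It was 0.0554 to 0.571 between the kidney groups and -0.022 to 0.405 between CI-AKI kidney and plasma. The number of arrays limits the precision. Alternatives covered scaling, background correction, the detection filter, single pools left out, blocks and 1 fit over all groups.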

Additional observations from a re-analysis of the deposited data

Results flagged for a closer look

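MiR-100 in CI-AKI plasma pool 3 stood far below the other CI-AKI plasma pools, at a scaled signal of 3.52 beside 6.18 to 6.60. It was the only array apart from its group by Dixon's criterion among the 20 combinations of member and group checked. Chance alone flags about 1 in 20 groups.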

How the results depend on the processing

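The members' contrast results kept their side of the threshold under all alternatives run: 0 members passed in kidney (20 alternatives), in plasma (20) or in the difference between them (26). In the tissue comparisons every tested member had a difference above 0 in 19 of 19 alternatives for control and 19 of 19 for CI-AKI pools. These counts are a description. In the main fits miR-99b, miR-100 and miR-125a-5p, and in control pools also miR-99a, were tested only through kidney, where they are high. Scaling moved the median of all tested miRNAs from -0.40 to 1.36 in control and from -0.59 to 1.48 in CI-AKI pools. In control pools 3 members passed without scaling, 3 with the replicate block, 1 with only miRNAs detected on every array, where only miR-125b-5p was tested, and 3 to 5 with single pools left out. In CI-AKI pools 1 passed with detection on every array, where 2 were tested, and 3 to 5 with single pools left out. With the brightest probe 6 of the 10 pairs of members passed between control kidney and plasma, beside 0 with all probes. This is a small change at the limit of the test. The smallest possible exact permutation p, 0.0286, was reached by 6 pairs with the brightest probe and by 5 with all probes. After adjustment it was 0.0476 and 0.0571. The replicate block changed no other member's call.

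Directions of values near 0 turned. In kidney the difference of miR-125a-5p became 0.026 with the percentile over all miRNAs, 0.021 with quantile normalization and 0.020 in the authors' table, that of miR-100 became 0.0014 with quantile normalization, 0.0072 with normexp and 0.013 in the authors' table, and that of miR-125b-5p -0.0098 without scaling. In plasma that of miR-125b-5p became 0.099 with quantile normalization, 0.19 with median scaling, 0.12 in the authors' table, 0.59 without both pool 4 arrays and 0.015 with all groups in 1 fit, and that of miR-99a became 0.19 with median scaling, 0.23 with the total signal, 0.16 in the authors' table, 0.27 without both pool 4 arrays and 0.016 with all groups in 1 fit. The difference between the tissues' contrast effects became -0.15, -0.11, -0.065 and -0.53 for miR-125b-5p (quantile, median, authors' table, without pool 4) and -0.098, -0.23, -0.12 and -0.20 for miR-99a (median, total signal, authors' table, without pool 4). The cause was not tested. With single pools left out, kidney values ranged from -0.11 to 0.0077 for miR-99b, -0.089 to 0.029 for miR-100, -0.074 to 0.025 for miR-125a-5p and -0.0098 to 0.063 for miR-125b-5p. Plasma values ranged from -0.31 to 0.25 for miR-99a and -0.25 to 0.30 for miR-125b-5p, and the difference of effects from -0.23 to 0.34 and -0.29 to 0.26.

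Normexp was not run for comparisons with plasma, because it could not be fitted on 2 CI-AKI plasma arrays. Dim signals limit miR-99b and miR-100 in plasma.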
